A study of Bos taurus with 6 samples.

Results

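miR-221 and miR-222 were each represented by a single entry in the deposited count table of bovine cumulus cells, and the rule that chose them was their name (bta-miR-221 and bta-miR-222). They are 2 of the 1055 entries in the table, and both passed the expression filter that kept 358 entries for testing. Cumulus cells are the somatic cells that enclose the oocyte. An oocyte with its cumulus is called a cumulus−oocyte−complex (COC). Small pieces of cumulus were taken from Bos taurus COCs of slaughterhouse ovaries after in vitro maturation with follicle stimulating hormone, and each COC was then fertilized and cultured on its own. Pools were formed by what later became of the enclosed oocytes. There were 3 blastocyst pools, named Samples D, E and F, around oocytes that developed to that stage, and 3 non-cleaved pools, named Samples A, B and C, around oocytes that had been exposed to sperm and did not divide. All COCs shared the maturation medium. Each pool mixes cells of several COCs of a heterogeneous cattle population, so variation between single COCs cannot be read from it. Nothing in the sources used here tells whether pools were collected on separate days, so a p-value reflects only how these 6 pools vary, which may in part be technical.

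The miRNAs miR-221 and miR-222 are cut from hairpins of a common primary transcript and share a seed, the short stretch near the 5′ end that pairs with target mRNAs, so that they can repress overlapping sets of targets. In human cells they are best known for repressing the cell cycle inhibitors p27 (CDKN1B) and p57 (CDKN1C), and the receptor tyrosine kinase KIT and the estrogen receptor ESR1 have also been described as targets. They are abundant in endothelium and vascular smooth muscle, among other cells. By the gene annotation of RefSeq for ARS-UCD2.0, MIR221 and MIR222 are neighbors on chromosome X with 0 genes starting and ending between them, and the span of the lncRNA gene LOC132344329 holds both. For the deposited counts no build is named in the sources used here.

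The smallest library held 2776256 counts and the largest 8139237, a 2.93-fold range. Of a list of granulosa and cumulus miRNAs, 4 of 4 were detected in every library, with miR-21-5p, the gonadal miR-202, and the gonadotropin-responsive miR-132 and miR-212 each at 1243 counts or more. Of 7 listed blood cell miRNAs, 0 were tested and the highest count was 20. Of the 6 listed miRNAs of early embryos and germ cells in the table, 0 were tested and the highest count was 33. Samples B and E carry small sets of other miRNAs far from the remaining libraries, and results are therefore also given without both.

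Both miRNAs were moderately abundant in cumulus cells. Counts of miR-221 were 2676, 1446 and 1229 in Samples D, E and F of the blastocyst group, against 4110, 1728 and 2425 in Samples A, B and C of the non-cleaved group. Counts of miR-222 were 1724, 1291 and 1151 in Samples D, E and F, against 3228, 1175 and 2090 in Samples A, B and C. These counts bound the counting error to between 1.56% and 2.95% of a value, and since copies made by PCR were not marked, the intervals and errors on counts cover counting error only. By mean CPM, counts scaled to 1000000 per library, miR-221 was the 84th of the 358 tested entries, at 463.0 CPM (SD 125.3, n = 6), and miR-222 the 92nd, at 367.8 CPM (SD 97.2, n = 6). The entries next to miR-221 in this order were miR-1271 (481.0 CPM) and miR-100 (473.3 CPM) above it and miR-16a (442.2 CPM) and miR-212 (419.1 CPM) below it. Those next to miR-222 were miR-183 (374.5 CPM) and miR-374b (373.4 CPM) above and miR-425-5p (349.1 CPM) and miR-181a (323.2 CPM) below. Every one of these neighbors differed from its member by less than the SD of that member over the 6 libraries. The spread of the pair between libraries was of an ordinary size. The SD of log2 TMM-scaled CPM was 0.35 for miR-221 and 0.41 for miR-222, ranks 135 and 159 from the smallest of the 257 entries averaging 50 counts or more, whose median was 0.33. TMM is the trimmed mean of M-values, which scales libraries by the bulk of their entries.

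**Figure D1:**
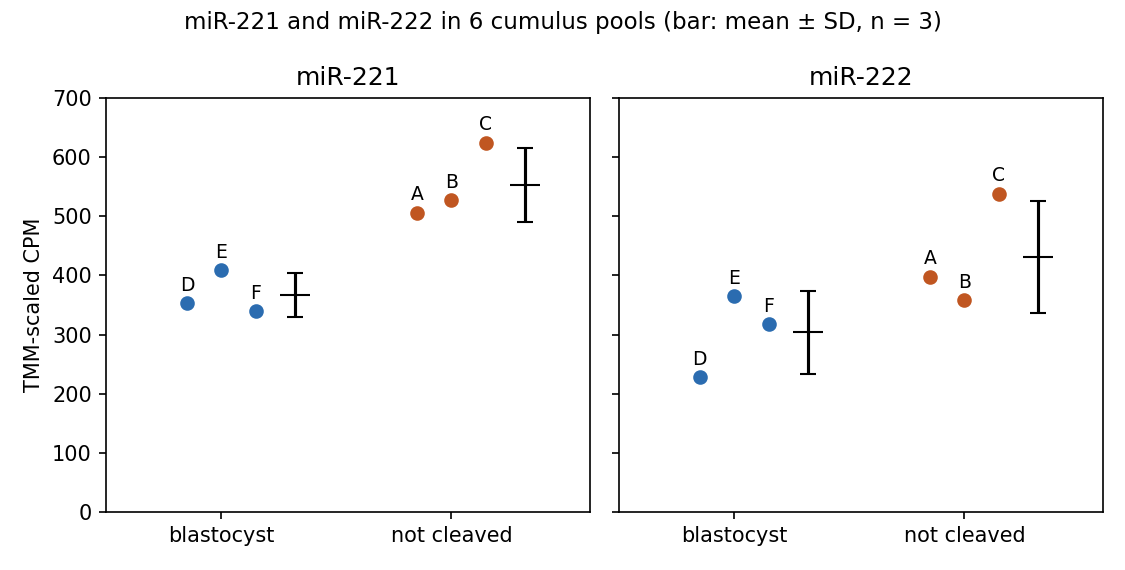
TMM-scaled CPM (y axis, from 0) of miR-221 (left panel) and miR-222 (right panel) in each of the 6 pools, with the blastocyst group left of the non-cleaved group; letters name the samples, and bars give the mean ± SD of 3 pools. For miR-221 the 3 blastocyst pools sit between 339.3 and 409.0 and the non-cleaved pools between 506.4 and 624.1, while for miR-222 Sample E at 365.1 lies above Sample B at 358.3.

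Pools around oocytes that became blastocysts had lower point estimates of miR-221 than pools around non-cleaved oocytes, but the difference did not pass the threshold over all entries. TMM-scaled CPM of miR-221 were 353.0, 409.0 and 339.3 in Samples D, E and F, against 506.4, 526.9 and 624.1 in Samples A, B and C. The groups did not overlap, and the lowest non-cleaved pool, Sample A, lay above the highest blastocyst pool, Sample E. The same direction without overlap was found in 17 of the 358 tested entries (4.75%), so the lack of overlap on its own does not set miR-221 apart. The means were 367.1 ± 36.9 in blastocyst and 552.4 ± 62.9 in non-cleaved pools (SD, n = 3 each). The log2 fold change of blastocyst over non-cleaved was -0.59 (SE 0.18), a fold of 0.66, with a 95% interval of the log2 value from -1.02 to -0.16. In the quasi-likelihood test of edgeR its unadjusted p of 0.0143 was the third lowest of all entries, but that place depended on the scaling and the test. The unadjusted edgeR p of miR-221 ranked 226th with upper-quartile factors (0.550), 105th when scaled to the reference miRNAs of the study (0.306) and 10th in the exact test of edgeR (0.0975). The edgeR p ranked 1st with library totals alone (0.0102), and the unadjusted DESeq2 p of miR-221 ranked 4th (0.0359). In the TMM-scaled quasi-likelihood test, 10 entries (2.79%) had an unadjusted p under 0.05. Benjamini-Hochberg adjustment over the 358 entries brought the edgeR p of miR-221 to 0.993. With either edgeR or DESeq2, 0 entries (0%) passed an adjusted p of 0.05, and 7 had an unadjusted p under 0.05 in DESeq2. For the mean log2 values of miR-221, exact permutation over pools (two-sided) gave p = 0.1, the smallest p that 3 pools against 3 allow. In pooled cells, fewer cells holding a miRNA and less of it per cell cannot be told apart.

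The point estimate for miR-222 lay on the same side, with a wider spread. TMM-scaled CPM of miR-222 were 227.4, 365.1 and 317.7 in Samples D, E and F, against 397.7, 358.3 and 537.9 in Samples A, B and C. Here the groups overlapped through Samples E and B. Sample D was the lowest and Sample C the highest of all. The means were 303.4 ± 70.0 in blastocyst and 431.3 ± 94.4 in non-cleaved pools (SD, n = 3 each). The log2 fold change of miR-222 was -0.51 (SE 0.26, 95% interval -1.12 to 0.10), a fold of 0.70, with edgeR p-values of 0.0907 before and 0.993 after adjustment. The exact permutation test of its log2 values gave p = 0.2. The interval of miR-222 thus includes both no difference and a difference as large as that of miR-221. The size of the estimate rests on the pools at either end, since it was -0.32 without Sample C or without Sample D, while for miR-221 the estimates without a pool lay between -0.67 and -0.50.

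Summed over the pair, the shared seed was carried by 580.4, 774.6 and 656.4 TMM-scaled CPM in Samples D, E and F, against 903.9, 885.8 and 1162 in Samples A, B and C. All 3 blastocyst pools were below all 3 non-cleaved pools, as they were for 17 of the 358 single entries (4.75%). The means were 670.4 ± 97.9 in blastocyst and 983.8 ± 154.4 in non-cleaved pools (SD, n = 3 each). With the pair entered as a single row among 357, its log2 fold change was -0.55 (SE 0.20, 95% interval -1.02 to -0.09), with edgeR p-values of 0.0256 before and 0.994 after adjustment. The direction was the same without Samples B and E. Without both, the log2 fold change was -0.71 for miR-221, -0.78 for miR-222 and -0.74 for the sum, with the lowest adjusted p of the 3 at 0.977 in edgeR. The estimate for the sum was smaller with other scalings, at -0.25 (SE 0.40, unadjusted edgeR p of 0.552) with upper-quartile factors and -0.29 (SE 0.25, unadjusted edgeR p of 0.283) when scaled to 3 reference miRNAs.

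How far the groups were apart depended on what the counts were scaled to. TMM left the median fold change over the tested entries at -0.02 on the log2 scale, library totals alone moved it to -0.13, and upper-quartile factors moved it to 0.32. With library totals alone, both members separated the groups. miR-221 ran from 328.8 to 407.2 CPM in blastocyst and from 522.6 to 622.4 CPM in non-cleaved pools, and miR-222 from 211.8 to 363.6 CPM in blastocyst and from 410.4 to 488.6 CPM in non-cleaved pools. On that scale 22 entries (6.15%) had all blastocyst pools below all non-cleaved pools. With upper-quartile factors, where 4 entries (1.12%) did, the groups overlapped for both members. For each member the highest value was then in a blastocyst pool. It was 619.9 CPM for miR-221 and 553.4 CPM for miR-222, against at most 572.4 and 493.3 CPM in non-cleaved pools. The log2 fold changes were -0.21 (SE 0.33, unadjusted edgeR p of 0.550) for miR-221 and -0.10 (SE 0.40, unadjusted edgeR p of 0.813) for miR-222. Both were below the median of all entries.

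The study used let-7a, miR-26a and miR-191 as its reference miRNAs in qRT-PCR, and the same 3 were tried here as a scale for the counts. The geometric mean of these references was itself 4420, 7949 and 6285 CPM in Samples D, E and F, against 7238, 8437 and 7562 CPM in Samples A, B and C, so it varied 1.91-fold and was lowest in Sample D. Per 1000 reference counts there were 74.4, 51.2 and 52.6 counts of miR-221 in Samples D, E and F, against 72.2, 73.8 and 75.0 in Samples A, B and C. The non-cleaved pools were close together, and Sample D joined them on this scale. For miR-222 the values were 47.9, 45.7 and 49.2 in Samples D, E and F, against 56.7, 50.2 and 64.6 in Samples A, B and C. These groups did not overlap for miR-222, and it was the single entry of the 358 (0.279%) with all blastocyst pools lower. Counting both directions, 28 entries did not overlap. The reference miR-26a itself followed miR-222 over the libraries (r = 0.91 in log2 TMM-scaled CPM), so miR-222 and its divisor are not independent. What this adds to the separation of miR-222 was not tested. This scale moves the median log2 fold change of all entries to 0.26, which leaves fewer entries lower in all blastocyst pools. On it the unadjusted edgeR p of miR-222 was 0.362, the 135th lowest. The difference of blastocyst minus non-cleaved was -14.3 counts of miR-221 (two-sided exact permutation test, p = 0.3) and -9.53 counts of miR-222 (exact p = 0.1, the smallest possible) per 1000 reference counts. The log2 fold changes with reference scaling were -0.31 (SE 0.28) for miR-221 and -0.26 (SE 0.27) for miR-222, where the median of all entries was 0.26, and both had an adjusted p of 0.925 in edgeR. Which member separated the groups therefore changed with the scale, and the lower point estimates of both in blastocyst pools did not.

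**Figure D2:**
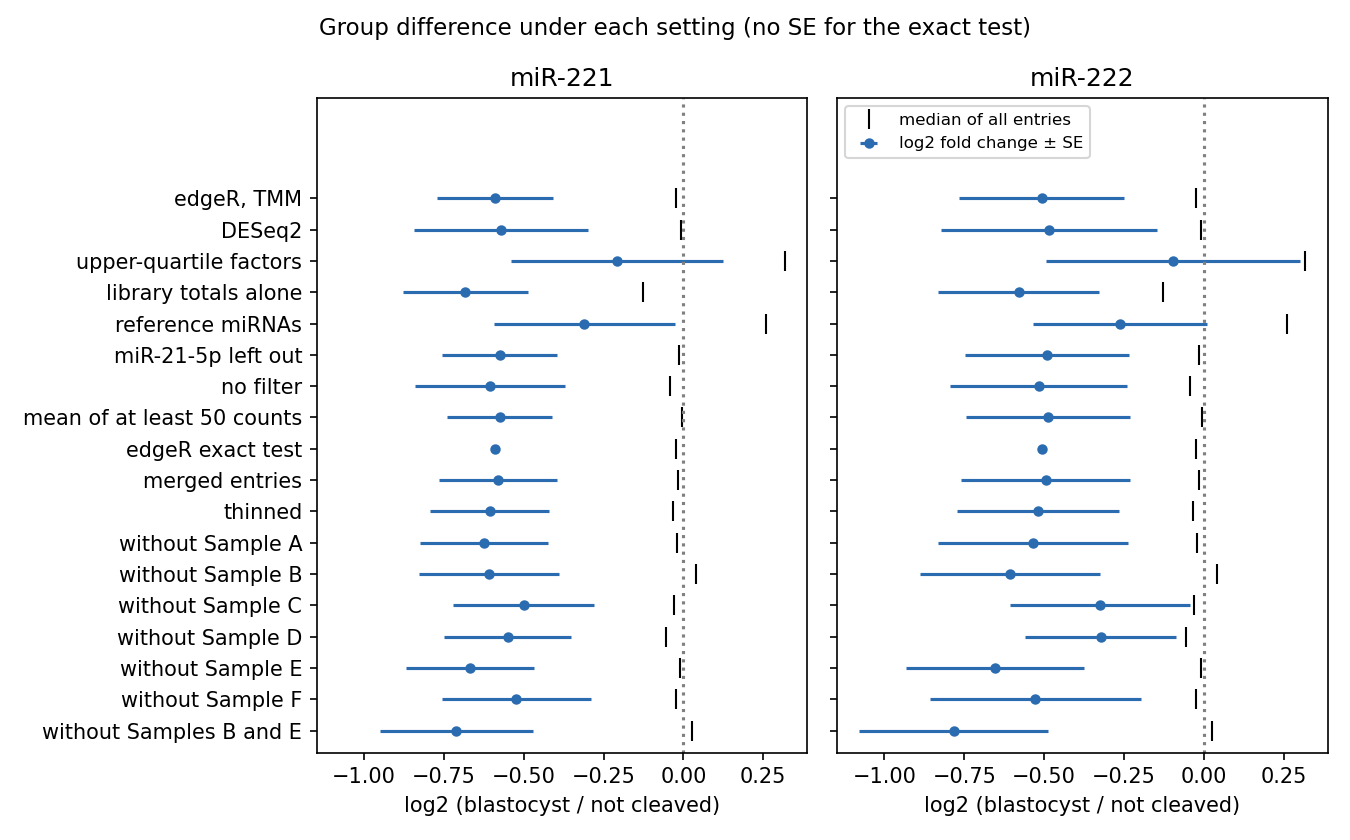
Log2 fold change of blastocyst over non-cleaved pools (x axis) for miR-221 (left) and miR-222 (right) under each setting (y axis); points with bars are estimates ± SE and black ticks are the median of all entries under that setting. Every point lies left of 0, from -0.71 to -0.21 for miR-221 and from -0.78 to -0.10 for miR-222, and the ticks move to 0.32 with upper-quartile factors and 0.26 with the reference miRNAs.

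The ratio of the pair needs no scaling between libraries, because both counts come from the same one. Counts of miR-221 exceeded those of miR-222 in all 6 libraries. Whether more counts of one miRNA than of the other stand for more molecules was not tested. There were 1.55, 1.12 and 1.07 counts of miR-221 per count of miR-222 in Samples D, E and F, against 1.27, 1.47 and 1.16 in Samples A, B and C. The highest ratios, in Samples D and B, belong to different groups. As a share of the summed counts of the pair, miR-221 took 60.8% in blastocyst Sample D (Wilson 95% interval 59.4% to 62.3%), 52.8% in E (51.0% to 54.7%) and 51.6% in F (49.6% to 53.6%). It took 56.0% in non-cleaved Sample A (54.9% to 57.1%), 59.5% in B (57.7% to 61.3%) and 53.7% in C (52.3% to 55.2%). The intervals of Samples D and B lie above those of the other 4 libraries, and that of Sample F alone reaches below 50%. The log2 ratio had an SD of 0.22 over the 6 libraries, against a median counting error of 0.05, which is a lower bound on the error because PCR copies were not marked. No difference in the ratio between the fates was detectable with 3 pools each. The mean log2 ratio was 0.30 ± 0.29 in blastocyst and 0.37 ± 0.17 in non-cleaved pools (SD, n = 3 each), and they differed by -0.076 (p = 0.7 by exact permutation, two-sided, where 0.1 is the smallest possible). Leaving out Sample B (0.016) or Sample F (0.026) turned the sign, and leaving out Sample D gave -0.24 (exact p = 0.2).

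**Figure D3:**
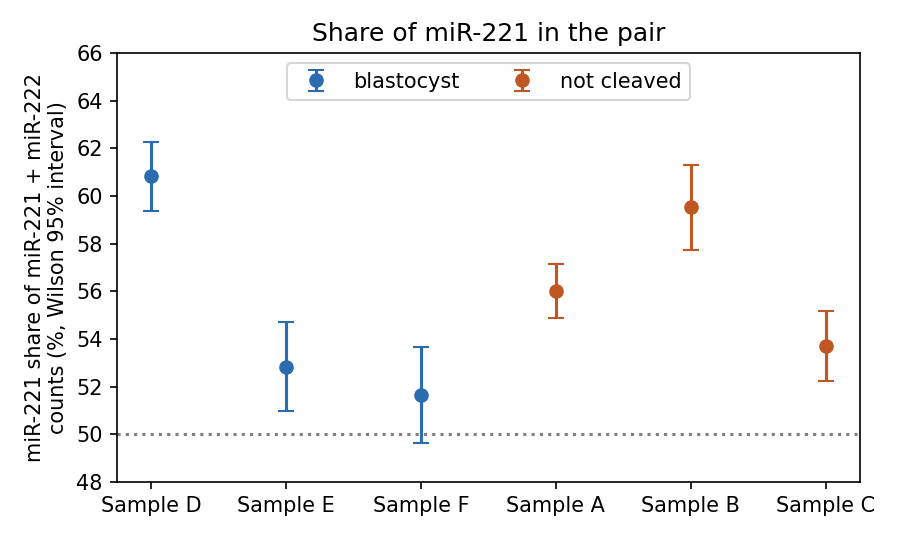
Share of miR-221 in the summed counts of miR-221 and miR-222 (y axis, %, starting at 48%) in each pool, blastocyst pools left and non-cleaved pools right, with Wilson 95% intervals as bars and a dotted line at 50%. Sample D at 60.8% and Sample B at 59.5% stand above the other pools, which lie between 51.6% and 56.0%.

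Libraries with more miR-221 tended to have more miR-222, a relation that did not pass 0.05 after adjustment. Over log2 TMM-scaled CPM, Pearson's r was 0.84 (exact permutation test, p = 0.0292) and Spearman's rho was 0.77 (exact p = 0.103). Benjamini-Hochberg adjusted values were 0.0583 and 0.103 over these 2 measures of the same relation. Without Samples C and F, the libraries farthest from the median of miR-221, r was 0.81 over the remaining 4 libraries. Sample C was highest in both members, whereas Sample F was lowest in miR-221 and Sample D in miR-222. Both values of a library share its total and its scaling factor. Both members also had lower point estimates in blastocyst pools, so r over all 6 libraries includes that group difference. With 6 libraries in 2 groups of 3, a correlation within a group has too few points. Scaled by the reference miRNAs, r was 0.57 (exact p = 0.176), and with library totals alone it was 0.86 (exact p = 0.0125).

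**Figure D4:**
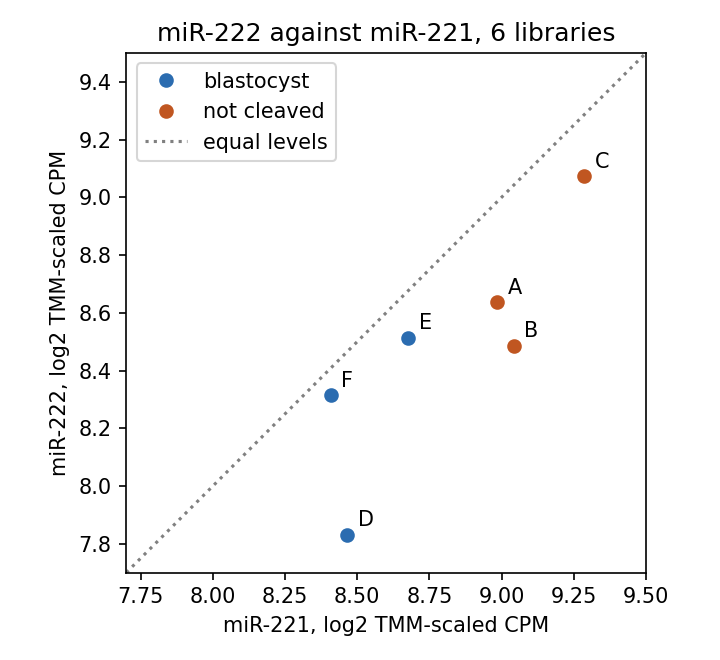
Level of miR-222 (y axis) against miR-221 (x axis), both as log2 TMM-scaled CPM, in the 6 libraries; colors mark blastocyst and non-cleaved pools, letters name samples, and the dotted line marks equal levels. All points lie below the line, with Samples D and B farthest from it, and r was 0.84.

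Over all 6 libraries the balance of miR-221 and miR-222 varied less than that of most listed pairs of neighboring miRNAs. Of 33 listed pairs from a common genomic cluster, 25 had partners that both averaged 50 counts or more. Over these pairs the SD of the log2 ratio between libraries ran from 0.12 to 2.003 with a median of 0.36, and miR-221 to miR-222 had the second smallest, after miR-30e-5p to miR-30c (0.12). Close behind were miR-181a to miR-181b (0.23), miR-106b to miR-93 (0.23), and miR-17-5p to miR-20a of the miR-17-92 cluster (0.24). At the other end were miR-29a to miR-29b (1.76) and miR-532 to miR-660 (2.003). That rank depended on Samples B and E. Without both, the SD of miR-221 to miR-222 was 0.23 and its rank the 9th of 25, while miR-532 to miR-660 was at 0.13. The Pearson r between partners was the 4th highest of the 25 for miR-221 and miR-222, where the median was 0.40 and miR-132 and miR-212, which derive from a common transcript, had -0.89. These correlations over 6 libraries are given as descriptions.

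**Figure D5:**
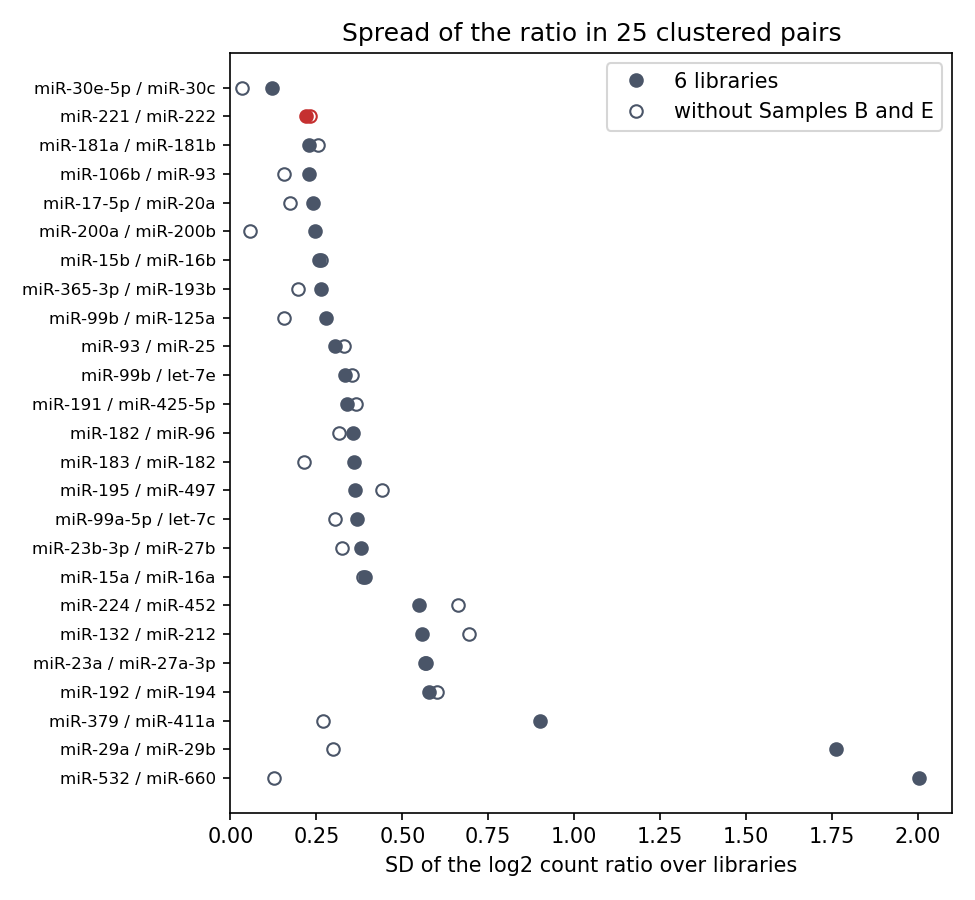
SD over libraries of the log2 count ratio (x axis) for 25 pairs of clustered miRNAs (y axis), ordered by the SD over 6 libraries; filled points use all libraries, open points leave out Samples B and E, and miR-221 / miR-222 is in red. That pair lies at 0.22 and 0.23, while miR-532 / miR-660 moves between 2.003 and 0.13.

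The entries whose levels followed miR-221 most closely over the 6 libraries, among 256 compared, were miR-98 (r = 0.93), miR-30f (r = 0.91), the 2 entries of let-7f (r = 0.86 and r = 0.85) and miR-222 itself, in the fifth place. miR-98 and let-7f belong to the let-7 family, which restrains growth genes. For miR-222 the closest were miR-2366 (r = 0.96), miR-30f (r = 0.94), miR-26b (r = 0.92) and the 2 entries of miR-26a (r = 0.91 for each), and miR-221 came in the 13th place. The median r of all compared entries was 0.071 with miR-221 and -0.010 with miR-222. All these points share libraries and scaling factors, and each r rests on 6 libraries. Since these entries were picked for following miR-221 or miR-222 over the same libraries, the sign of their group difference was largely fixed by the choice. Their log2 fold changes lay between -0.54 for miR-98 (SE 0.20, edgeR unadjusted p = 0.0295) and -0.26 for an entry of miR-26a. miR-26a is also one of the reference miRNAs above.

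Other miRNAs that are reported to repress the same targets, mostly in human cells, had point estimates on both sides of 0 with TMM scaling. Of the 9 other tested members of a p27 and p57 list, 0 passed the adjusted edgeR threshold of 0.05, 5 had higher and 4 lower point estimates in blastocyst pools, and their median log2 fold change was 0.07, beside -0.02 for all tested entries. In that list miR-181b (-0.40, SE 0.25) and miR-181a (-0.31, SE 0.19) were nearest to the pair, and miR-196a (0.60, SE 0.31) was farthest from it. A less abundant entry of miR-196a was at 0.32 (SE 0.36), with overlapping groups. miR-24-3p, a repressor of p27 that was more abundant than either member of the pair, had a log2 fold change of 0.18 (SE 0.19). Others of the list were also more abundant by mean CPM. Of them, miR-148a (0.09, SE 0.32) and miR-25 (0.07, SE 0.22) had positive estimates, and miR-92a (-0.15, SE 0.18) and miR-152 (-0.08, SE 0.20) negative ones. Of the KIT list, the 2 other tested members, miR-193b (0.50, SE 0.39) and miR-34a, which responds to p53 (0.80, SE 0.37), had positive estimates. Both were far less abundant than the pair, with a mean of 38.9 CPM for miR-193b and 7.9 CPM for miR-34a. The highest count of miR-193b, 531, was in Sample D. Among the 5 other tested members of the ESR1 list, 4 estimates were positive and 1 negative (median 0.18). These splits by sign depended on the scaling. In the p27 and p57 list, 8 estimates were positive and 1 negative with upper-quartile factors, and 7 were positive and 2 negative with the reference miRNAs, while all 5 of the ESR1 list were positive under both. Relative to the median of all entries under each of the 3 scalings, 5 of the p27 and p57 list lay above and 4 below, and 4 of the ESR1 list lay above and 1 below. Of the 15 other members tested in these 3 lists, 0 had an unadjusted p under 0.05 in the TMM-scaled quasi-likelihood test of edgeR, where 2.79% of all entries did, and 0 passed the adjusted threshold, where 0% of all entries did.

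Vascular cells also hold miR-221 and miR-222, and their defining miRNAs were scarce in every pool. miR-126-3p, the endothelial miRNA, had 8, 11 and 8 counts in Samples D, E and F, against 11, 12 and 14 in Samples A, B and C. miR-143 of smooth muscle had 114, 87 and 53 counts in Samples D, E and F, against 110, 71 and 76 in Samples A, B and C. miR-126-5p and miR-145 had at most 4 counts in a library. The summed level of the 4 listed vascular miRNAs was 15.1 to 27.6 CPM in blastocyst and 15.5 to 29.9 CPM in non-cleaved pools, so the ranges of this marker list overlapped almost entirely. Most of that sum was miR-143 in every pool. The log2 fold change was -0.44 (SE 0.66) for miR-126-3p and -0.01 (SE 0.35) for miR-143. Whether the share of vascular cells differed between the groups was not tested.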

How the data were processed

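Small RNA libraries of 6 cumulus pools were prepared with a NEBNext kit and sequenced on an Illumina NextSeq instrument by the study, with miRNAs identified by miRBase. The authors deposited raw whole-number counts per miRNA entry, not normalized. The sources used here name no aligner, counter or genome build. Column names give sample letters and groups but could not be tied to single sample labels. The deposited table of the authors' own comparison (fold changes, p-values, FDR values and mean counts) and their log2 values of variable miRNAs were not used.

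Tests were run with edgeR 4.0.16 and DESeq2 1.42.0 in R 4.3.3, and figures were drawn in Python 3.11.15 with matplotlib 3.10.9. Entries were filtered by filterByExpr by group, which kept 358 of 1055 entries with 99.99% of all counts, scaled by TMM and fitted with the quasi-likelihood model, and p-values were adjusted by Benjamini-Hochberg over all entries. The SE was recovered from the log2 fold change and the F statistic. The 95% intervals use it with the test's total degrees of freedom, which add prior to residual ones. Log2 CPM used a prior count of 2. Ratios and levels were compared by two-sided exact permutation tests over libraries. A mature miRNA with several entries is given by that of highest mean count, and how reads were divided among such entries was not tested. Named miRNAs are the pair, the 5 most correlated entries and the 2 neighbors in level on each side of each, and members of lists, of which a further one is not reported here. The pair and the lists were chosen with earlier results of these data known. Alternatives were DESeq2, other scalings and filters, counts thinned to the smallest library, the exact test of edgeR, entries of a mature miRNA merged, and libraries left out. The study measured miR-222, among other miRNAs, by qRT-PCR in cumulus of individual COCs. It had picked miR-222 from its sequencing as abundant and moderately different between the fates. By qRT-PCR the study reported high variability within each group, and described this variation as similar for both fates. From its data as a whole, the study found no miRNA whose level went with oocyte quality. The qRT-PCR measurements of the study were not analyzed here.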

Additional observations from a re-analysis of the deposited data

How the results depend on the processing

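miR-221 and miR-222 kept a negative log2 fold change and an adjusted p above 0.05 under all 17 alternatives tried for each, from -0.71 to -0.21 and from -0.78 to -0.10, and their sum under all 11, from -0.74 to -0.25. In edgeR and DESeq2 the count of entries past the adjusted threshold was 0 under all 17, with the lowest adjusted p at 0.583, without Sample E. With a library left out, the estimates ran from -0.67 to -0.50 for miR-221, from -0.65 to -0.32 for miR-222 and from -0.66 to -0.43 for the sum. The difference in log2 ratio ran from -0.24 to 0.026 with a library left out, positive without Sample B (0.016) or F, and it turned to 0.083 without Samples B and E. The correlation of the pair ran from 0.69 to 0.91 with a library left out. Its unadjusted exact permutation p, 0.0292 over all 6 libraries, was 0.05 or more when Sample A, C, D, E or F was left out. The correlation was 0.57 (exact p = 0.176) with the reference miRNAs, and 0.91 (exact p = 0.167) without Samples B and E. With 5 or 4 libraries fewer pairings exist, so a p is larger at the same r. The cause of the change with the reference miRNAs was not tested. No paired analysis was possible because the columns carry no replicate numbers shared between the groups.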
